A study of Homo sapiens with 4 samples.

Results

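The genes described here encode pre-mRNA splicing factors and heterogeneous nuclear ribonucleoproteins (hnRNPs), profiled in total and polysomal RNA of LN229, an established human glioblastoma cell line. Members were the protein-coding genes, read from probe sets with a single gene symbol, of the families HNRNP, SRSF, SF3A, SF3B, PRPF, SNRNP, SNRPA to SNRPG, LSM (without LSM10), U2AF and U2SURP, with SFPQ and TRA2B added. The rule uses names and no measured value. It found 43 of 7749 coding genes, of which 23 were classed by symbol as core spliceosome, 7 as SR proteins, 12 as hnRNPs and 1 is SFPQ. No U2AF gene was among them. The 23 include LSM11, a U7 snRNP protein, and LSM1, a protein of a cytoplasmic ring, which are counted with the core though they are outside the spliceosome. The probe sets analysed here lie on chromosomes 1 to 8 and part of chromosome 9, as their identifiers show, so relatives encoded elsewhere were not analysed here. Cells were left untreated or given 5 µM ATO for 6 h in DMEM with serum and gentamycin, and all were lysed in buffer with cycloheximide. The labels write ATO without spelling it out; ATO commonly stands for arsenic trioxide. The 4 groups are untreated total, untreated polysomal, ATO total and ATO polysomal RNA, with 1 sample in each. Without replicates no value below has a replicate error or a test, and the number of arrays limits its precision.

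Splicing removes introns from pre-mRNA in the nucleus. The core machine is built from small nuclear ribonucleoproteins (snRNPs), in which a ring of small Sm or LSM proteins holds a uridine-rich snRNA and further proteins recognise splice sites or unwind RNA. SR proteins, with a domain rich in arginine and serine, mostly bind exons and favour splice site use, while hnRNPs coat nascent transcripts, often oppose SR proteins and follow many mRNAs into the cytoplasm. The mRNAs of all these proteins are themselves translated on cytoplasmic polysomes, the complexes of an mRNA with several ribosomes, and polysomal RNA over total RNA reads how far an mRNA is over- or under-represented there.

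Values are the deposited log2 expression values, and differences are log2 differences between 2 samples. Over all probe sets 406 of 65528 exceeded 16, so the scale is not plain log2 intensity and folds are folds on that scale. Of 7749 coding genes, 3876 had a mean log2 value of at least 7.80, and they serve as the background. The ATO total sample is grouped by its title, whereas its source name reads polysomal. For 7 probe sets of nuclear RNAs that are not translated and passed the same level filter (U1, U4atac and U5 snRNAs and 7SK) the median difference, polysomal minus total, was -2.52 without ATO and -2.66 with it, and ATO total stood at a median of 0.03 against untreated total. A pair of the U1 probe sets carried identical values, so these are not 7 separate readings, and RNU5F-1, below the filter, stood at -0.29 and -0.75. Of the glial and glioma markers listed, NES (10.56 to 11.43), SOX2 (12.69 to 13.23) and EGFR (8.65 to 8.71) were measured and lay above the filter level in every sample. Of the neuron markers MAP2 (13.01 to 13.30) and GAD1 (9.02 to 9.44) also did so, while the 4 blood markers and EPCAM of epithelium were at 5.62 or below in every sample. These markers' part in the results was not tested. Because the RNA came from whole cultures, a difference in all cells and a larger one in some of them cannot be told apart.

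Of the 43 members, 38 passed the filter, and their median level was high, 13.67 against 11.125 for all 3876 genes. The 5 that did not pass were the U7 snRNP protein LSM11 (mean 7.61), SRSF12 (6.19) and the hnRNP C-like genes HNRNPCL4 (6.85), HNRNPCL1 (6.08) and HNRNPCL2 (3.87), whose near-identical copies can share probes. HNRNPA2B1, HNRNPU, HNRNPD and TRA2B each exceeded 16 in at least 1 sample.

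The first letters of an mRNA bear on its translation, since a terminal oligopyrimidine start, a C followed by an unbroken run of C and T, places an mRNA under control of the mTOR pathway. Annotated start sites were therefore read from RefSeq (GRCh38.p14), which gave a start sequence for 39 of the 43 members; LSM1, LSM6, PRPF3 and SFPQ were not in the table. A start was sought with C as its first base and at least 5 pyrimidines in a row, read on the strand of the gene. It was found in at least 1 window of 5 of the 39 members (12.8%). Of all 35116 single start windows 4.07% had one, which is a share of windows and not of genes. Among genes past the filter, such a start was found for 4 of 34 members (11.8%) and 238 of 3237 background genes (7.35%). The windows below run from 30 bases before the annotated first base to 20 bases from it on. They show the 5 members with such a run and, for contrast, the members that stood lowest (SNRNP200, HNRNPU) and highest (SNRPC) in untreated polysomal RNA among those with a start sequence. Capitals mark the pyrimidine run from the first base on, or the first base alone where it is a purine.
HNRNPA0 (chr5:137754344-137754393, minus strand): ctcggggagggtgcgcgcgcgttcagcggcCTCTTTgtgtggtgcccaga
LSM2 (chr6:31806947-31806996, minus strand): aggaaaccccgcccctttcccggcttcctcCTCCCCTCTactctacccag
LSM8 (chr7:118184134-118184183, plus strand): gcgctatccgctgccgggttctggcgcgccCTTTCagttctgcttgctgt
U2SURP (chr3:143001540-143001589, plus strand): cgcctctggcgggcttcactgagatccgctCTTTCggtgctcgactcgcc
LSM11 (chr5:157743682-157743731, plus strand): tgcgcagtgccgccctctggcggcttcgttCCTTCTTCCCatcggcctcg
SNRNP200 (chr2:96305527-96305576, minus strand): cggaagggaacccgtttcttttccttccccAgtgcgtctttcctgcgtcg
HNRNPU (chr1:244864524-244864573, minus strand): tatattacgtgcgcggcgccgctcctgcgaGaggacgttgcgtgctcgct
SNRPC (chr6:34757475-34757524, plus strand): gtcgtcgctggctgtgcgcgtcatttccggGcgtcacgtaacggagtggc

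The 4 members past the filter with such a start lay on both sides of 0 in untreated cells. Whether the start bears on the members' polysomal differences was not tested. LSM8 (0.92 untreated, 0.70 ATO) and LSM2 (0.56 in both), which have a run, stood high in polysomal RNA. HNRNPA0 (-0.40, -0.06) and U2SURP (-0.36, 0.01), which also have one, stood low in untreated cells. SNRNP200 and HNRNPU, the lowest of their classes, start with a purine. Over the 3237 background genes with a start sequence, the median polysomal minus total difference in untreated cells was 0.06 with a run and 0.20 without one. The medians with ATO were 0.07 and 0.19. A match describes the annotated letters and does not show which start the cells used.

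Polysomal RNA was set against total RNA within each treatment state to see how the mRNAs of splicing factors were distributed. As a class, the core spliceosome genes stood above the SR protein and hnRNP genes, but this rested on part of the core. The core median difference over 22 genes was 0.44 without ATO and 0.41 with it, against -0.10 and -0.06 over the 15 SR and hnRNP genes. The median of all 3876 genes was 0.19 and 0.17. The core median exceeded that of the SR and hnRNP genes by 0.54 without ATO and by 0.47 with it, in samples that the treatment states do not share. Of the 22 core genes, the 9 SNRP and LSM genes had medians of 0.55 and 0.67. The other 13 had medians of -0.03 and 0.10, under those of all genes. The median of the 13 was nearer to that of the SR and hnRNP genes without ATO, and nearer to that of all genes with it. The 13 ran from -1.07 to 0.77 without ATO and from -1.43 to 0.94 with it. The division into 9 and 13 genes was made after the values were seen.

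Among the 38 members past the filter, 7 were over 1.5-fold higher in polysomal RNA of untreated cells, where 16.2% of the background genes were, and 4 were over 1.5-fold lower, where 4.72% were. In ATO cells 9 members were higher (background 14.7%) and 4 lower (background 3.92%). As shares of the 38 members, 18.4% were higher and 10.5% lower without ATO, and 23.7% and 10.5% with it. All of the higher members belonged to the core, 7 and 9 of its 22 genes. The split depends on the shift of all genes: with each sample centred on its median, untreated cells had 3 higher and 7 lower members, beside 234 and 383 background genes. ATO cells then had 2 higher and 5 lower members, beside 243 and 314 background genes.

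**Figure D1:**
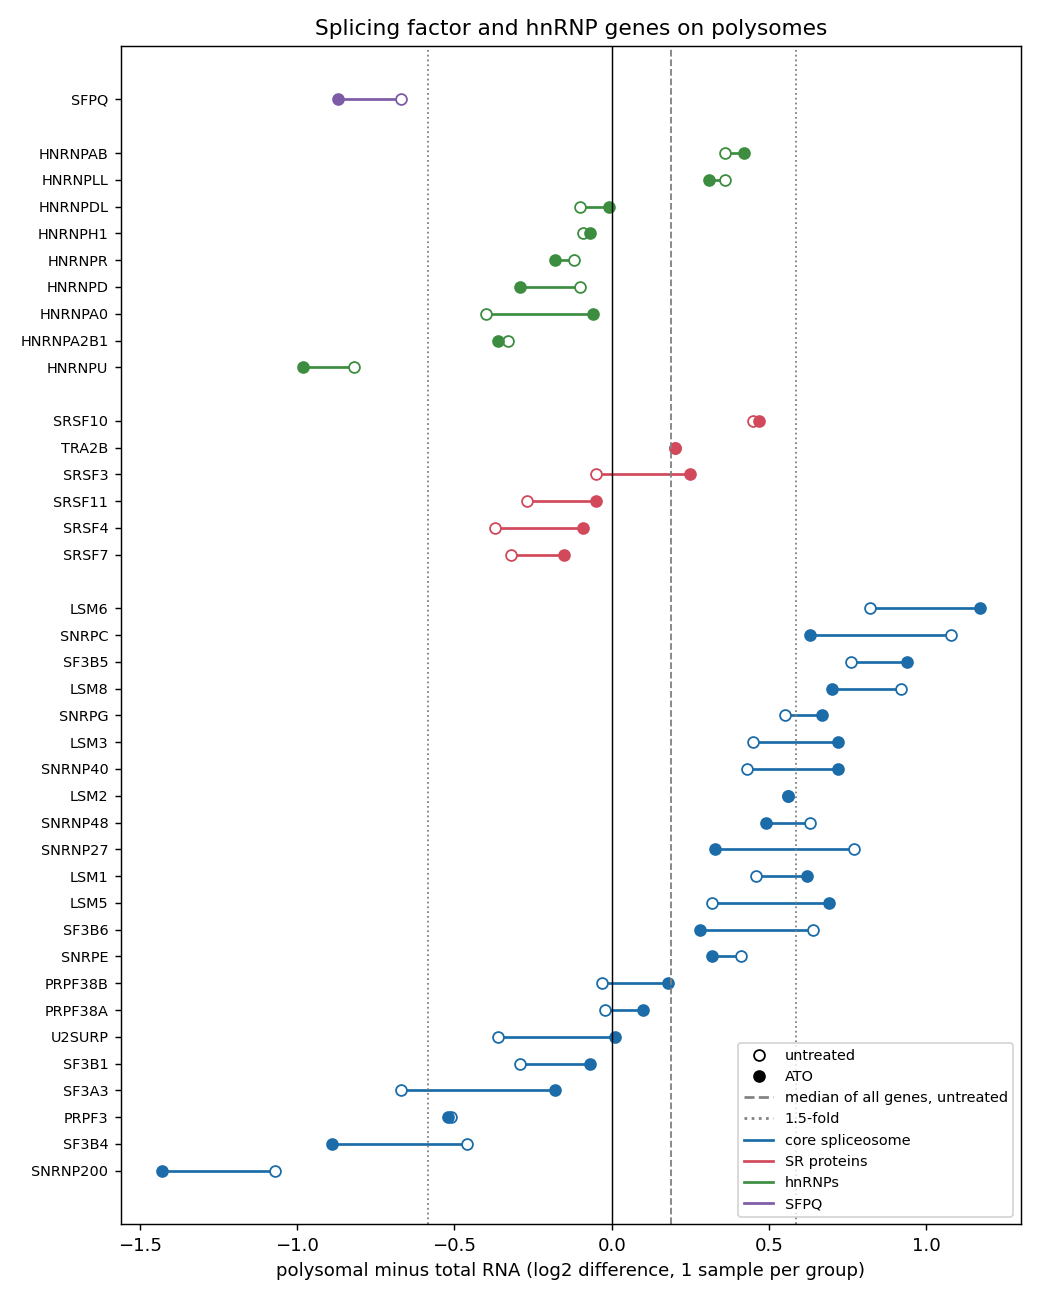
Log2 difference, polysomal minus total RNA, for each of the 38 members past the filter, grouped by class; open circles are untreated and filled circles ATO cells, 1 sample per group. The dashed line is the median of all background genes in untreated cells (0.19), solid black is 0 and dotted lines mark 1.5-fold. SNRNP200, HNRNPU and SFPQ lie left of the lower dotted line in both states, and LSM6, SNRPC, SF3B5 and LSM8 right of the upper one.

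The 9 SNRP and LSM genes past the filter encode the Sm and LSM ring proteins and the U1 snRNP protein SNRPC. All 9 stood above the median of all genes in both states, with no single value under 0.32, although SF3B5, SNRNP27, SF3B6 and SNRNP48 of the other core genes exceeded several of them in untreated cells. SNRPC, the U1 protein that helps pair U1 snRNA with the start of an intron, read 8.62 in untreated total, 9.70 in untreated polysomal, 8.62 in ATO total and 9.25 in ATO polysomal RNA. Both polysomal values were above both total values, 2.11-fold in untreated and 1.55-fold in ATO cells, which placed it at rank 32 and rank 456 of 3876 from the highest. LSM6, a subunit of the LSM ring, read 10.51 in untreated total, 11.33 in untreated polysomal, 10.40 in ATO total and 11.57 in ATO polysomal RNA. Its polysomal values exceeded its total values by 1.77-fold in untreated and 2.25-fold in ATO cells, rank 181 and rank 19 from the highest. Another LSM6 probe set, without an Entrez identifier and below the filter level (5.21 to 5.64), stood at 0.43 and 0.11.

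LSM8, the subunit that distinguishes the nuclear ring on U6 snRNA from the cytoplasmic one, read 11.56 in untreated total, 12.48 in untreated polysomal, 11.74 in ATO total and 12.44 in ATO polysomal RNA. It stood 1.89-fold and 1.62-fold higher on polysomes, so that both polysomal values again lay above both total values. LSM1, which takes the place of LSM8 in the cytoplasmic ring that promotes decapping and mRNA decay, stood at 0.46 and 0.62. It read 11.69, 12.15, 11.60 and 12.22 in untreated total, untreated polysomal, ATO total and ATO polysomal RNA. The shared ring subunits LSM2 (0.56, 0.56), LSM3 (0.45, 0.72) and LSM5 (0.32, 0.69) lay in the same range. In that order of samples LSM3 read 14.41, 14.86, 14.25 and 14.97, and LSM5 read 13.89, 14.21, 13.79 and 14.48, with both polysomal values of each gene above both total values. In ATO cells 5 of the 6 LSM genes past the filter were over 1.5-fold higher, LSM2 being the exception, and in untreated cells LSM6 and LSM8 were (background 14.7% and 16.2%). These counts follow the shift of all genes: with centred samples 1 of the 9 SNRP and LSM genes, LSM6, passed in ATO cells and 3 of 9 in untreated cells.

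The Sm proteins SNRPG and SNRPE belong to the ring around U1, U2, U4 and U5 snRNAs. SNRPG read 13.97 in untreated total, 14.52 in untreated polysomal, 13.85 in ATO total and 14.52 in ATO polysomal RNA, a difference of 0.55 and 0.67 that passed 1.5-fold in ATO cells. SNRPE stood at 0.41 and 0.32 and passed in neither state. Processed pseudogenes of SNRPG, SNRPE, LSM3, SNRPC and LSM1 are represented on the array, and probes can be shared with them. The 12 SNRPC pseudogene probe sets all lay below the filter level.

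The SF3 complex, the part of the U2 snRNP that holds the branch site, was split. SF3B5, a small subunit, read 9.47 in untreated total, 10.23 in untreated polysomal, 9.09 in ATO total and 10.03 in ATO polysomal RNA, so its polysomal values stood above both total values by 1.69-fold and 1.92-fold. SF3B6, the small subunit that contacts the branch adenosine, read 14.34, 14.98, 14.31 and 14.59 in the same order. Its differences of 0.64 and 0.28 passed 1.5-fold in untreated cells alone. SF3B4 lay on the other side, with 15.70 in untreated total, 15.24 in untreated polysomal, 15.77 in ATO total and 14.88 in ATO polysomal RNA. It was thus 1.38-fold lower on polysomes without ATO and 1.85-fold lower with it. SF3A3 read 13.39, 12.72, 13.15 and 12.97 in the same order, 1.59-fold lower in untreated cells and 1.13-fold lower in ATO cells. SF3B1, the large subunit often mutated in myeloid malignancies, stood in the middle of these 5 genes at -0.29 and -0.07. Both values lay under the medians of all genes (0.19 and 0.17), and the untreated one was at rank 561 of 3876 from the lowest. Another SF3B1 probe set, without an Entrez identifier and so outside the rule, stood at 0.31 and 0.62. Its values, 6.10 to 6.77, lay below the filter level.

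**Figure D2:**
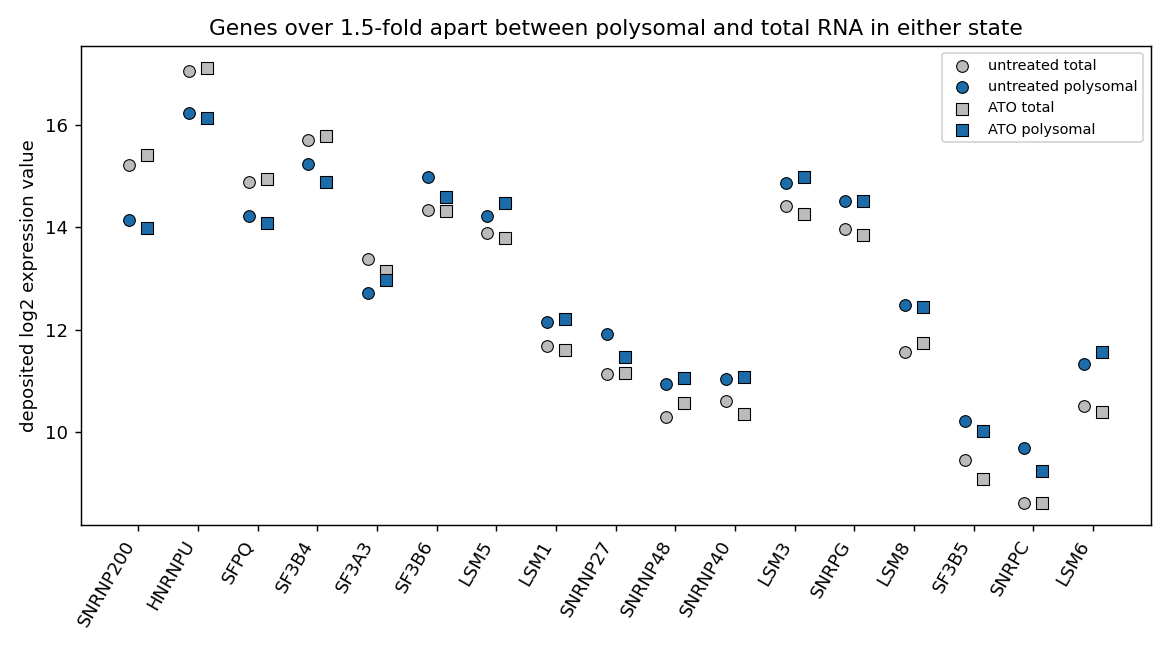
Deposited log2 value (vertical axis) in each of the 4 samples for the 17 members over 1.5-fold apart between polysomal and total RNA in either state; grey symbols are total and blue symbols polysomal RNA, circles untreated and squares ATO cells. The 5 genes on the left have both polysomal values below both total values, and the 12 on the right have both above; levels of different genes are not comparable on this scale.

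Proteins of the U4/U6.U5 tri-snRNP, which brings the catalytic RNAs into the spliceosome, included the lowest member of all. SNRNP200, the helicase that unwinds the U4 and U6 snRNAs, read 15.22 in untreated total, 14.15 in untreated polysomal, 15.41 in ATO total and 13.98 in ATO polysomal RNA. Its polysomal values were below both total values, 2.10-fold in untreated and 2.69-fold in ATO cells, at rank 18 and rank 4 of 3876 from the lowest. PRPF3, which binds the U4/U6 duplex, read 11.73, 11.22, 11.63 and 11.11 in the same order and stood at -0.51 and -0.52. SNRNP40, of the U5 snRNP, lay on the opposite side at 0.43 and 0.72, with 10.61 and 10.36 in total against 11.04 and 11.08 in polysomal RNA of untreated and ATO cells. SNRNP27, a small tri-snRNP protein, read 11.14, 11.91, 11.15 and 11.48 in untreated total, untreated polysomal, ATO total and ATO polysomal RNA, which is 1.71-fold higher on polysomes in untreated and 1.26-fold in ATO cells. SNRNP48, of the minor spliceosome that removes a rare class of introns, read 10.31 and 10.58 in total against 10.94 and 11.07 in polysomal RNA and stood at 0.63 and 0.49. All of SNRNP27, SNRNP40 and SNRNP48 thus had both polysomal values above both total values. PRPF38A (-0.02, 0.10), which joins before activation, its relative PRPF38B (-0.03, 0.18) and the U2-associated protein U2SURP (-0.36, 0.01) lay below the median of all genes in untreated cells and, apart from PRPF38B, also in ATO cells.

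None of the 6 SR protein genes past the filter reached 1.5-fold in either state. Their median was -0.16 in untreated cells and 0.08 in ATO cells, and the latter became -0.10 with each sample centred on its median. SRSF10, a splicing repressor when dephosphorylated, stood highest at 0.45 and 0.47, with 13.78 in untreated total, 14.23 in untreated polysomal, 13.69 in ATO total and 14.16 in ATO polysomal RNA. TRA2B, which binds purine-rich exonic enhancers, read 15.75, 15.95, 15.84 and 16.04 in that order and stood at 0.20 in both states, close to the median of all genes. SRSF4 (-0.37, -0.09), SRSF7 (-0.32, -0.15) and SRSF11 (-0.27, -0.05) were below 0 in both. Their total and polysomal values lay close together: untreated and ATO total RNA read 13.90 and 13.68 for SRSF4, 12.58 and 12.54 for SRSF7 and 13.30 and 13.41 for SRSF11. Polysomal RNA read 13.53 and 13.59, 12.26 and 12.39, and 13.03 and 13.36, so the values of SRSF11 overlapped between fractions while those of SRSF4 and SRSF7 did not. SRSF3, a shuttling SR protein that also takes part in mRNA export, read 13.66 in untreated total, 13.61 in untreated polysomal, 13.57 in ATO total and 13.82 in ATO polysomal RNA. Its untreated samples were nearly level, and in ATO cells polysomal RNA stood above total RNA by 0.25.

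The hnRNP genes lay low. Of the 9 past the filter 7 stood below 0 in both states, and the median was -0.10 in untreated cells and -0.07 in ATO cells. HNRNPU, a large chromatin- and RNA-binding protein of the nuclear scaffold, read 17.05 in untreated total, 16.23 in untreated polysomal, 17.11 in ATO total and 16.13 in ATO polysomal RNA. It was 1.77-fold and 1.97-fold lower on polysomes, at rank 59 and rank 22 from the lowest, and was the 1 hnRNP past 1.5-fold in each state. HNRNPA2B1, which binds and sorts many RNAs, stood at -0.33 and -0.36, from 16.73 and 16.88 in total to 16.40 and 16.52 in polysomal RNA of untreated and ATO cells. HNRNPA0 stood at -0.40 in untreated cells, the next lowest there after HNRNPU, and at -0.06 in ATO cells. HNRNPR (-0.12, -0.18), HNRNPDL (-0.10, -0.01) and HNRNPH1, a binder of G-rich elements (-0.09, -0.07), lay below 0 in both states. A second HNRNPH1 probe set, below the filter level (5.43 to 5.58), stood at -0.03 and 0.15. HNRNPD, a binder of AU-rich mRNA elements, stood at -0.10 in untreated cells and lower, at -0.29, in ATO cells. HNRNPAB (0.36, 0.42) and HNRNPLL, a regulator of alternative splicing in lymphocytes (0.36, 0.31), were above the median of all genes. HNRNPAB read 15.25 and 15.18 in total against 15.61 and 15.60 in polysomal RNA, and HNRNPLL 10.68 and 10.71 against 11.04 and 11.02. HNRNPR read 14.66 and 14.57 in total against 14.54 and 14.39 in polysomal RNA, so its untreated polysomal value lay just under its ATO total value.

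SFPQ, an RNA-binding protein of nuclear paraspeckles, read 14.88 in untreated total, 14.21 in untreated polysomal, 14.95 in ATO total and 14.08 in ATO polysomal RNA, 1.59-fold and 1.83-fold lower on polysomes. A dimmer second probe set of SFPQ stood at 0.44 in untreated and -0.51 in ATO cells, and with the mean over both probe sets SFPQ no longer passed 1.5-fold in untreated cells.

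**Figure D3:**
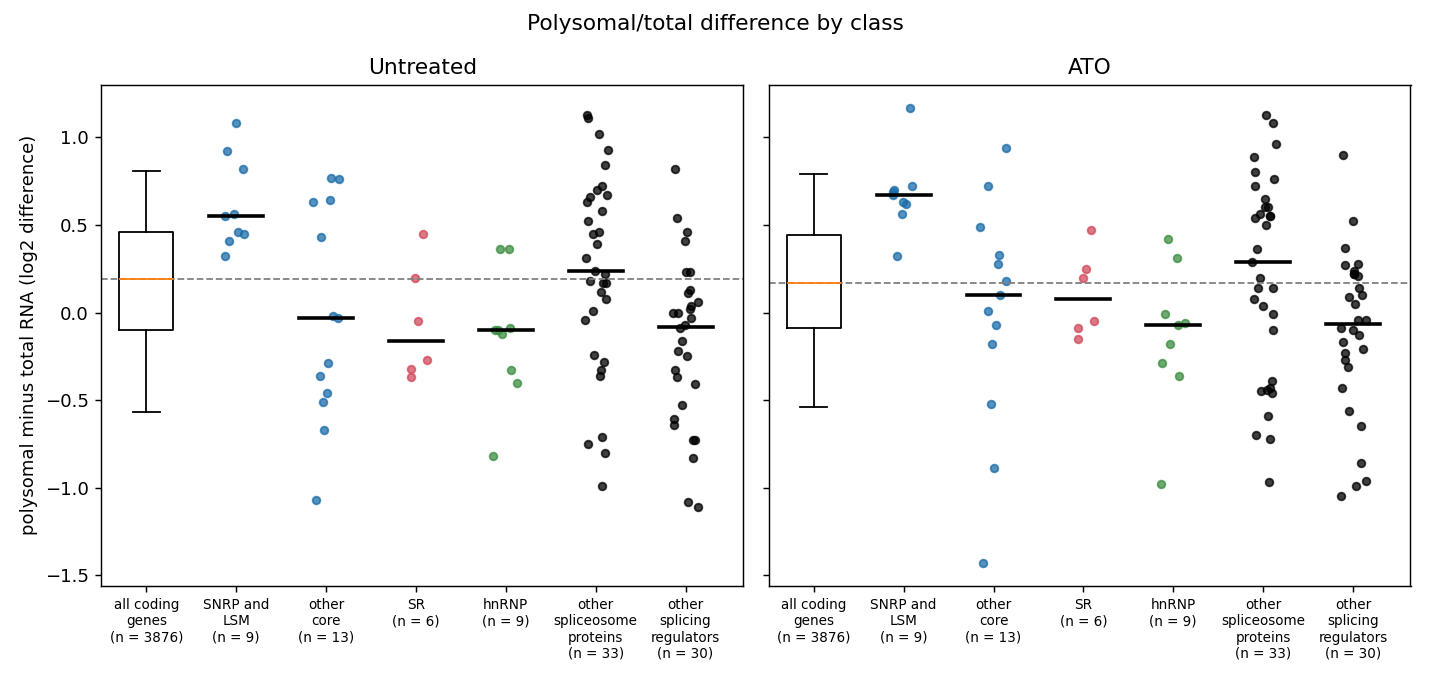
Log2 difference, polysomal minus total RNA (vertical axis), by class in untreated (left) and ATO cells (right); each point is a gene, black bars are class medians, the box of all coding genes spans the quartiles with its median in orange and whiskers to percentiles 5 and 95, and the dashed line is that median. The 9 SNRP and LSM genes all lie above the dashed line in both states, and 7 of 9 hnRNP genes lie below it.

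The polysomal differences in untreated and ATO cells were close for most members. Over the 38 genes, which are not replicates of a condition, they correlated at r = 0.90 (Spearman's rho 0.90), against 0.79 (0.78) over all 3876 genes, and 34 of 38 (89.5%) had the same sign, beside 81.8% of all genes. The points share the array and its probes, and the correlation is a description. Over 1.5-fold higher in both states were SNRPC, LSM8, LSM6 and SF3B5, and lower in both were SNRNP200, HNRNPU and SFPQ. These are 4 and 3 of the 38 members, beside 327 and 91 of the 3876 background genes.

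Splicing proteins outside the families of the rule were listed by function. Of 33 other spliceosome proteins measured, all past the filter, 10 exceeded 1.5-fold upward and 4 downward on polysomes in each state, and the medians were 0.24 and 0.29. The background shares are 16.2% and 14.7% upward and 4.72% and 3.92% downward, against 30.3% and 12.1% of this list in each state. This list too was spread to both sides. Ranked by the smaller of the differences in both states, its highest genes were the small cyclophilins PPIH (1.02, 1.13) and PPIL1 (1.13, 0.89), the zinc finger protein ZMAT2 (0.93, 0.96) and RBM8A, a subunit of the exon junction complex (0.84, 1.08). Its lowest were the RNA helicases DDX46 (-0.99, -0.72) and DHX15 (-0.75, -0.70), and CDC5L (-0.71, -0.97) and PLRG1 (-0.80, -0.39) of the PRP19 complex. The list also held BUD23, an rRNA methyltransferase that does not belong there (1.11, 0.80); without it 9 of 32 were higher in each state.

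Of 36 other splicing regulators and snRNP assembly genes measured, 30 passed the filter. Over 1.5-fold, 1 was higher in each state (3.33%, background 16.2% untreated and 14.7% with ATO). Lower were 7 in untreated cells (23.3%, background 4.72%) and 5 in ATO cells (16.7%, background 3.92%). Their medians were -0.08 and -0.07, with 24 of 30 and 21 of 30 below the median of all genes. Ranked in the same way, lowest were the helicase DHX9 (-1.08, -0.99), the SR-related protein THRAP3 (-1.11, -0.96), the assembly factor GEMIN5 (-0.83, -0.86) and SYNCRIP, also called hnRNP Q (-0.73, -0.65). Highest were the assembly factors GEMIN6 (0.82, 0.90) and WDR77 (0.41, 0.52), the SR protein kinase CLK4 (0.54, 0.37) and SMN1 (0.46, 0.24), whose near-identical copy SMN2 can share its probes.

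ATO was then compared with untreated cells in each fraction, which asks whether abundance or polysomal RNA differed with the drug. In total RNA none of the 38 members differed over 1.5-fold, where 0.103% of background genes were higher and 0.361% lower. In polysomal RNA none did either (background 0.258% higher and 0.877% lower). At this threshold a count of 0 among 38 genes is near the background. Member medians were -0.07 in total and 0.03 in polysomal RNA, and those of all genes were -0.02 in both.

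At 1.2-fold, a threshold added after the values were seen, 2 members were lower in ATO total RNA (background 8.15%) and 1 was higher (background 4.72%). SF3B5 (-0.38) and LSM2 (-0.33) were the lower ones and SNRNP48 (0.27) the higher one. In polysomal RNA 5 were lower (background 12.2%) and 2 higher (background 8.23%). A count of 5 among 38 members is near that background share. The lower 5 were core genes, the class that holds 22 of the 38 members. They were SNRPC (-0.45), SNRNP27 (-0.43), SF3B6 (-0.39), SF3B4 (-0.36) and LSM2 (-0.33). SRSF11, a U2AF-associated SR-like protein (0.33), and LSM5 (0.27) were the higher ones. LSM2 was the 1 member lower by this measure in both fractions, with 11.78 in untreated total, 12.34 in untreated polysomal, 11.45 in ATO total and 12.01 in ATO polysomal RNA, so its polysomal/total difference was the same in both states.

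**Figure D4:**
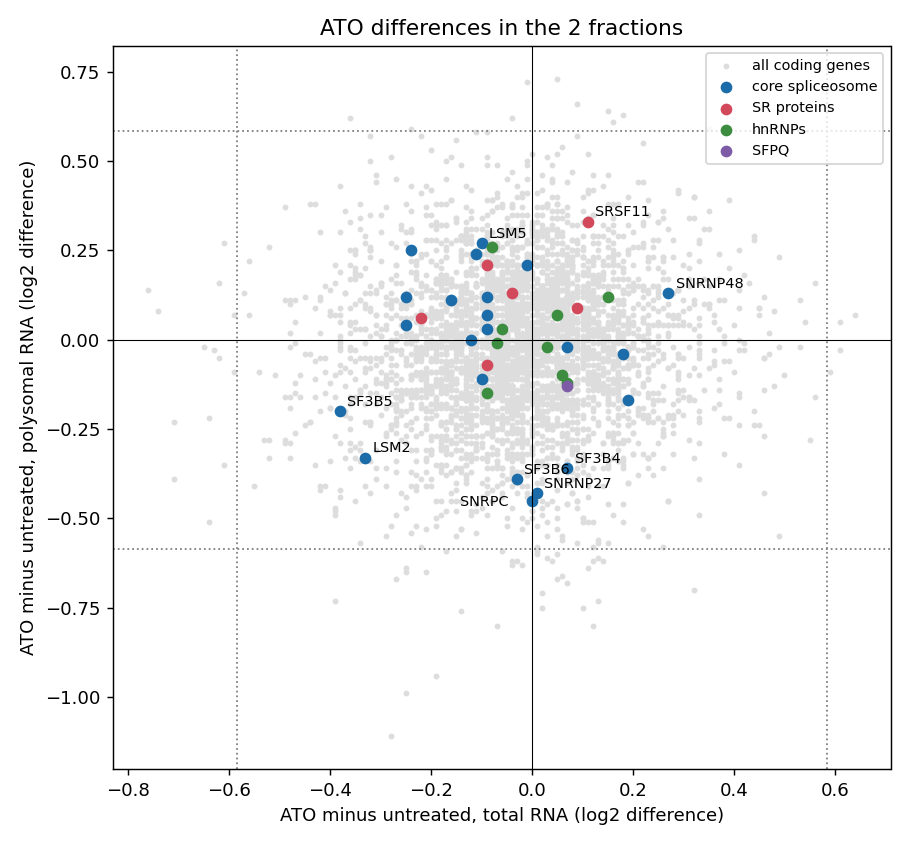
Log2 difference, ATO minus untreated, in total RNA (horizontal axis) and polysomal RNA (vertical axis); coloured points are the 38 members by class, grey points all background genes, and dotted lines mark 1.5-fold. No member lies past a dotted line; members over 1.2-fold in either fraction are named, and SNRPC and SNRNP27 lie lowest on the vertical axis at about 0 on the horizontal one.

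The series' design text compares polysome-enriched genes of both states, which the difference of the polysomal/total ratio, ATO minus untreated, reads per gene. No member passed 1.5-fold (background 1.6% higher and 2.01% lower). At 1.2-fold 9 members had a higher ratio (background 15.2%) and 5 a lower one (background 14.7%). The highest value among the 38 was that of SF3A3 (0.49), and the lowest were those of SNRPC (-0.45), SNRNP27 (-0.44) and SF3B4 (-0.43). Of the 6 SR genes past the filter 5 were above 0, between 0.02 and 0.30, and TRA2B was at 0.00. Their median was 0.20, against 0.12 for core, -0.03 for hnRNP and 0.00 for all genes. The sign of the ATO difference was the same in both fractions for 12 of 38 members and opposite for 24, and SNRPC and SNRPG were at 0.00 in 1 fraction. The fractions share no sample. Over all background genes 51.2% had the same sign.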

How the data were processed

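Total and polysomal RNA of untreated and ATO-treated LN229 cells were profiled on Affymetrix arrays, 1 sample per group. Per the labels' protocols, polysomes came from a sucrose gradient and RNA from an AllPrep kit. Per the series' design text, samples were run in technical triplicate and pooled; for the way of pooling, the summary method, the normalization and the build, no statement is given in the sources used here. Expression Console is named in the submitters' processing notes. The log2 values were used as deposited by the authors.

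Probe sets with 1 symbol in the platform annotation (16127) were typed through their Entrez identifier in the RefSeq table of GRCh38.p14. Each gene was read from its probe set of highest mean. Genes at or above the median mean (7.80) were the background. Differences were formed between samples and counted past 1.5-fold, the threshold of the design text. No test was run, since each group holds 1 sample. Members, classes and lists were chosen with earlier results of these data known. Named genes were members past 1.5-fold, the extremes of each class (up to 3 per direction) and up to 4 per direction of each list; other members are given more briefly. Alternatives were centring, quantile normalization, other filters and thresholds, an offset of 32, the mean over probe sets, all single-symbol genes, a loess trend (span 0.3) and other member sets. Steps were tested on simulated data. Python 3.11.15, pandas 2.3.3 and statsmodels 0.14.6 were used.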

Additional observations from a re-analysis of the deposited data

Results flagged for a closer look

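For 12 members the ATO difference had opposite signs in total and polysomal RNA and the polysomal/total ratio changed by more than 1.2-fold, a size chosen after the values were seen. With 1 sample per group the difference between fractions was not tested. The ratio was higher with ATO for SF3A3 (0.49, from -0.24 in total and 0.25 in polysomal RNA), U2SURP (0.37, from -0.25 and 0.12), LSM5 (0.37, from -0.10 and 0.27), LSM6 (0.35, from -0.11 and 0.24) and HNRNPA0 (0.34, from -0.08 and 0.26). It was also higher for SRSF3 (0.30, from -0.09 and 0.21), SNRNP40 (0.29, from -0.25 and 0.04), SRSF4 (0.28, from -0.22 and 0.06) and LSM3 (0.27, from -0.16 and 0.11). It was lower for SNRNP27 (-0.44, from 0.01 and -0.43), SF3B4 (-0.43, from 0.07 and -0.36) and SNRNP200 (-0.36, from 0.19 and -0.17). Over 1.2-fold, 15.2% of background genes had a higher and 14.7% a lower ratio, whatever their signs. Counted in that way, 9 of the 38 members had a higher and 5 a lower ratio. The background share with opposite signs as well was not counted, so the count of 12 has no like share beside it. The ratio change is the polysomal minus the total ATO difference, so opposite signs enlarge it by construction. Some of the opposite signs rest on values near 0, as for SNRNP27 in total RNA (0.01) and SNRNP40 in polysomal RNA (0.04).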

How the results depend on the processing

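No paired analysis was possible because the groups share only 1 replicate number. An additive fit of fraction and treatment, which would take their interaction as error on 1 residual degree of freedom, was not run. The planned comparison with protein length was not run, since no protein sequences were used here. The gap between the core and the SR and hnRNP medians in polysomal against total RNA stayed above 0 under every alternative run, from 0.295 to 0.56 in untreated and from 0.29 to 0.62 in ATO cells. Its lowest values, 0.295 and 0.29, came without the LSM genes, and 0.62 came with a core of snRNP proteins only. Centring shifts both medians alike, so it could not change this gap. Leaving out the SNRP and LSM genes together was not among the alternatives. The 13 core genes that would remain had medians of -0.03 untreated and 0.10 with ATO. Those of the SR and hnRNP genes were -0.10 and -0.06. For the ratio change the gap of 0.10 became -0.04 when genes were kept from the 75th percentile up and -0.02 with snRNP proteins only. Counts of members higher in polysomal RNA moved from 7 untreated and 9 ATO to 3 and 2 with centred samples, 4 and 2 after the loess subtraction, 3 and 5 with genes kept from the 75th percentile up, 1 and 1 at 2-fold and 17 and 17 at 1.2-fold. Counts of lower members moved from 4 to 7 in untreated cells with centred samples and after the loess subtraction. At 2-fold, 1 member was lower in each state, and at 1.2-fold 13 were lower in untreated and 7 in ATO cells. At 1.2-fold, ATO counts moved from 0 to 1 higher and 2 lower in total RNA, to 2 higher and 5 lower in polysomal RNA, and to 9 higher and 5 lower for the ratio. The other 138 values of these results kept within 1.5 times of a count or 0.1 of a median gap.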

Other observations

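Probe sets of processed pseudogenes, which lie outside the member rule, had the following log2 differences, polysomal minus total RNA, where they passed the level filter. Of 37 HNRNPA1 pseudogene probe sets, 14 were at or above the filter level; all 14 stood below 0 in polysomal against total RNA of untreated cells (median -0.44) and 13 in ATO cells (median -0.245). HNRNPKP2 stood at -0.70 and -0.19 in untreated and ATO cells, HNRNPKP4 at -0.55 and -0.24, HNRNPA3P8 at -0.46 and -0.29, HNRNPA3P12 at 0.27 and 0.10 and HNRNPCP2 at -0.58 and 0.15. The parent genes HNRNPA1, HNRNPA3, HNRNPC and HNRNPK were not analysed here. SNRPGP10 stood at 0.86 and 0.97 and LSM3P3 at 0.60 and 0.76, beside 0.55 and 0.67 for SNRPG and 0.45 and 0.72 for LSM3. SNRPEP5 stood at 0.70 and 0.17 and SNRPEP7 at 0.44 and 0.17, beside 0.41 and 0.32 for SNRPE. Near-identical copies can share probes, so these are not separate measurements of a pseudogene's RNA, and how much signal is shared was not tested.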
